A study of Rattus norvegicus with 6 samples.

Results

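Macrophage, neutrophil and pan-leukocyte genes were examined in colon tissue cut from the anastomosis of Sprague-Dawley rats (males of a widely used outbred stock) 2 weeks after the bowel had been rejoined end to end. The genes were 9 of the 21417 identifiers in the deposited table, chosen by identifier: Ptprc, Cd68, Cd14, Aif1, Cd74, Spp1, S100a8, S100a9 and Lcn2. For 3 libraries the method was magnetic compression anastomosis (MCA): magnets hold the ends together under pressure until they fuse. For the other 3, the controls, it was conventional suture. The labels name biological replicates 1 to 3 in each group and give neither the animals' age nor whether a library pooled animals. There was no unoperated colon among the groups, so a level in either group cannot be set against resting tissue.

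Leukocytes enter a healing bowel wound in a set order. Neutrophils arrive first, kill bacteria and release antimicrobial proteins, and macrophages derived from blood monocytes then clear debris and take part in rebuilding the matrix. The colon also holds resident macrophages and antigen-presenting cells without injury. Ptprc encodes CD45, a membrane phosphatase carried by nearly all white blood cells. S100a8 and S100a9 encode the 2 subunits of calprotectin, the main cytosolic protein of neutrophils, which is also made by monocytes and is measured in stool as a sign of gut inflammation. Lcn2 encodes lipocalin-2, which withholds iron from bacteria and is made by neutrophils and by inflamed gut epithelium. Cd68 is a lysosomal glycoprotein of macrophages, Cd14 a co-receptor for bacterial lipopolysaccharide, and Aif1 (Iba1) an actin-binding protein of macrophages. Spp1 encodes osteopontin, a secreted matrix protein of wound macrophages that other cells make too. Cd74 encodes the invariant chain, which guides MHC class II molecules in antigen-presenting cells.

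Values are FPKM, fragments relative to gene length and library depth, so levels of different genes can be compared per length. Values of a gene are given for replicates 1, 2 and 3 of a group, in that order. Library totals recovered from the values lay between 14867454 and 15791079 fragments. The highest exceeded the lowest by a factor of 1.06. MCA replicate 2 stood apart from the other libraries. Its mean Spearman correlation with them across the 13591 genes tested was 0.850, against 0.880 to 0.926 for the rest, and it held the lowest value of 36.5% of these genes. The log2 difference of each gene is therefore also given without it. The table pairs no identifier with a symbol and only the 9 listed identifiers were named, so markers of epithelium, muscle or other leukocytes were not analysed here, and the colon label could not be checked against them. In bulk tissue, fewer cells of a type and less RNA per cell cannot be told apart.

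In the comparison of MCA with suture, the neutrophil genes and Ptprc were higher in all 3 MCA libraries than in any suture library, and the other 5 genes overlapped between the groups. The mean of log2(FPKM + 1) was higher with MCA for 8 of the 9 genes, against 46.6% of all genes tested, and lower for Cd14. Groups that did not overlap, with MCA higher, were found for 4 of the 9 genes, against 6.18% of all genes tested, and without MCA replicate 2 for 5 of the 9 (Spp1 added) against 18.0%. An unadjusted p under 0.05 was reached by 5 of the 9 genes, all higher with MCA, against 4.91% of all genes in either direction and 3.50% in this one. This count was 4 of 9 without MCA replicate 2, where 751 of all 13591 genes did so in this direction and 1065 in either. It was 3 of 9 without suture replicate 1, against 328 of all genes in this direction and 663 in either. With array quality weights it was 3 of 9, against 935 of all genes in this direction and 1360 in either. The median log2 difference of the 9 genes was 1.00, and that of all genes tested was -0.02. None of the 9 genes passed the adjusted threshold of 0.05 in limma with Benjamini-Hochberg adjustment over all genes tested, and 0.00% of all genes did (0 of 13591, with 667 at an unadjusted p under 0.05). On recovered fragments limma-voom gave 0 and 644 genes by these thresholds. Of the 9 genes 4 were then under the unadjusted threshold, all higher with MCA, against 476 of all genes in this direction. With no filter it was also 4 of 9, against 999 of 21417 genes in either direction. Spp1 was the gene lost in both settings. Array quality weights gave MCA replicate 1 the highest weight, 4.31, and MCA replicate 2 the lowest, 0.290. With these weights 35 of all genes passed the adjusted threshold in limma. Among them were S100a8 (limma adjusted p = 0.0190, 0.0190 to 0.415 over the settings run) and S100a9 (limma adjusted p = 0.0484, 0.0484 to 0.491). The genes had been listed with earlier results of these data known, so these counts describe the list and do not test it.

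**Figure D1:**
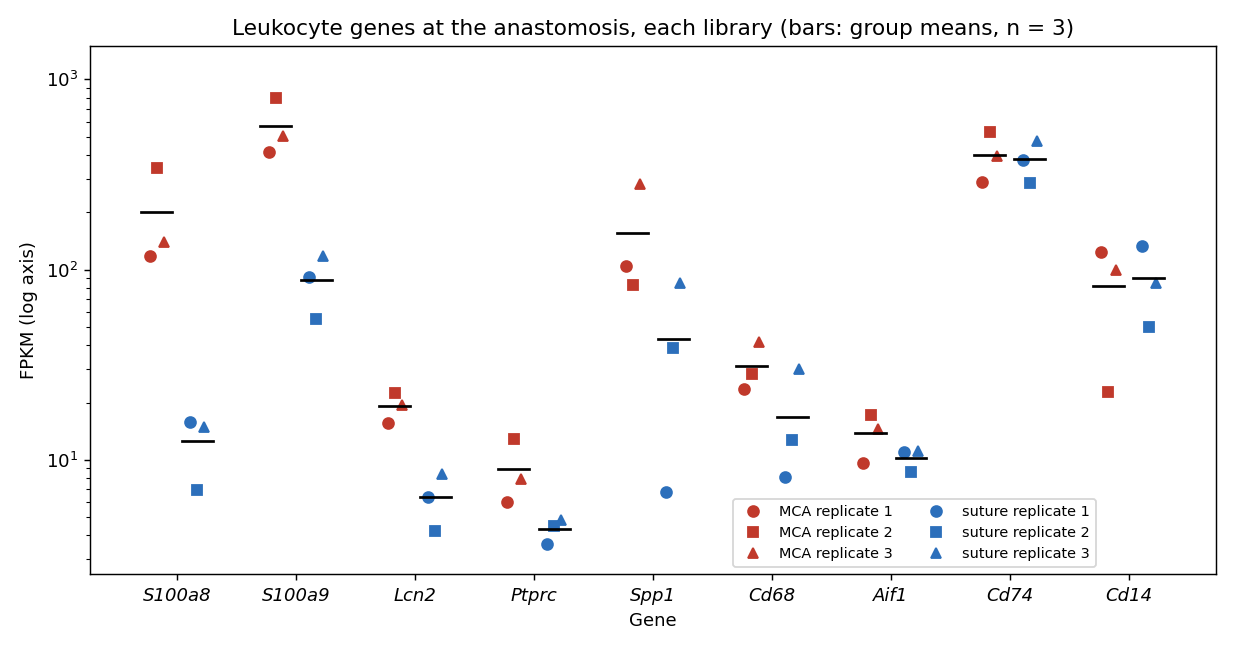
FPKM on a log axis of the 9 genes in each of the 6 libraries, with MCA in red, suture in blue, marker shape for the replicate number and black bars for group means (n = 3). The red points lie above all blue points for S100a8, S100a9, Lcn2 and Ptprc, and the colours overlap for Spp1, Cd68, Aif1, Cd74 and Cd14.

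Among the 9 genes, those of the calprotectin subunits were the farthest apart between the groups. S100a8 (ENSRNOG00000011557) measured 118, 343 and 139.7 FPKM after MCA, against 15.9, 6.96 and 14.9 FPKM after suture. Every MCA library was far above every suture library, and the lowest MCA value was 7.47 times the highest suture value. Means came to 200.5 ± 124 FPKM (SD, n = 3) for MCA and 12.6 ± 4.89 FPKM (SD, n = 3) for suture, and the ratio of means was 15.9. The suture values rested on 41 to 93 fragments and the MCA values on 705 to 1925. On the log2(FPKM + 1) scale the difference was 3.80 (standard error 0.489) with a 95% interval of 2.64 to 4.96 (limma, unadjusted p = 0.000111, adjusted p = 0.101). Among the 13591 genes tested S100a8 ranked 2 by positive difference and 15 by p. Without MCA replicate 2 the difference was 3.33 (limma, adjusted p = 0.0974).

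S100a9 (ENSRNOG00000011483) was the most abundant of the 9 genes in the MCA group. It measured 417, 796 and 504 FPKM after MCA, against 91.5, 55.0 and 118 FPKM after suture. The groups were again apart, with the lowest MCA value 3.53 times the highest suture value. Means came to 572 ± 199 FPKM (SD, n = 3) for MCA and 88.2 ± 31.6 FPKM (SD, n = 3) for suture, and the ratio of means was 6.49. The log2 difference was 2.70 (standard error 0.401) with a 95% interval of 1.75 to 3.65 (limma, unadjusted p = 0.000277, adjusted p = 0.140). It ranked 19 by positive difference and 26 by p among all genes tested. Without MCA replicate 2 the difference was 2.43 (limma, adjusted p = 0.152). By abundance within a library, S100a9 stood at rank 167, 50 and 138 of 21417 genes after MCA, and at rank 885, 1158 and 618 after suture. The corresponding ranks of S100a8 were 625, 141 and 501 with MCA and 4726, 7576 and 5123 with suture.

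The calprotectin subunits were also set against each other. S100a8 amounted to 0.284, 0.431 and 0.277 of the S100a9 level after MCA, and to 0.173, 0.126 and 0.127 of it after suture. The ratio was thus higher in each MCA library than in each suture library, with means of 0.331 ± 0.0871 (SD, n = 3) and of 0.142 ± 0.0269 (SD, n = 3). Genes with a higher ratio to S100a9 in every MCA library were not counted, and 95.2% of the other genes tested had a lower one. The direction restates that S100a8 had the larger log2 difference, 3.80 against 2.70 for S100a9. The difference in the log2 ratio was 1.21 (two-sided exact permutation test, p = 0.1, the smallest p that 3 against 3 allows), and 1.00 without MCA replicate 2. The suture ratios rest on only 41 to 93 S100a8 fragments per library, and the effect of this depth on the ratio was not measured.

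Lcn2 (ENSRNOG00000013973) followed the same pattern at a lower level. It measured 15.5, 22.5 and 19.5 FPKM after MCA, against 6.36, 4.25 and 8.42 FPKM after suture. The groups did not overlap, and Lcn2 placed all 6 libraries in the same order as S100a9 did. Both genes were higher in every MCA library, so this shared order includes the group difference. Means came to 19.2 ± 3.52 FPKM (SD, n = 3) for MCA and 6.34 ± 2.09 FPKM (SD, n = 3) for suture, and the ratio of means was 3.02, from 218 to 298 and 59 to 113 fragments. The log2 difference was 1.48 (standard error 0.281) with a 95% interval of 0.82 to 2.15 (limma, unadjusted p = 0.00116, adjusted p = 0.254). It was 1.37 without MCA replicate 2 (limma, adjusted p = 0.323). Relative to S100a9, Lcn2 was lower with MCA: the ratio of FPKM was 0.0373, 0.0283 and 0.0387 after MCA, against 0.0695, 0.0772 and 0.0714 after suture. A ratio to S100a9 that was lower in every MCA library was found for 95.2% of the other genes tested, since S100a9 itself was higher with MCA, so this direction does not set Lcn2 apart.

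Ptprc (ENSRNOG00000000655), the pan-leukocyte gene, had the lowest mean FPKM of the 9 genes in both groups. It measured 5.99, 12.9 and 7.95 FPKM after MCA, against 3.60, 4.51 and 4.83 FPKM after suture. The groups did not overlap, but MCA replicate 1 lay only 1.24 times above the highest suture library. Means came to 8.94 ± 3.54 FPKM (SD, n = 3) for MCA and 4.31 ± 0.636 FPKM (SD, n = 3) for suture, and the ratio of means was 2.07. The log2 difference was 0.85 (standard error 0.292) with a 95% interval of 0.16 to 1.54 (limma, unadjusted p = 0.0226, adjusted p = 0.813). Single libraries, or the weights given to them, decided whether Ptprc stayed under an unadjusted p of 0.05. The difference was 0.58 with an unadjusted limma p of 0.0534 without MCA replicate 2, and 0.75 with 0.0692 without suture replicate 1. With array quality weights and all 6 libraries kept, it was 0.46 with an unadjusted limma p of 0.0671.

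The stretches before the transcription starts of S100a9, Lcn2 and Ptprc, 3 of the 4 genes whose groups were apart, are shown because these genes were higher in the same libraries. Each runs over the 250 bases before the RefSeq start on build GRCr8, on the minus strand, and is written 5′ to 3′ in the direction of transcription. Because no source used here names the build of the deposited values, the genes were matched by symbol. Capitals mark matches on either strand to any of 6 motifs. These were the CCAAT box, the PU.1 motif GAGGAAG, the AP-1 motif TGANTCA, the C/EBP motif TTGCNNAA, the NF-kB motif and the TATA box in the form TATAAA. The S100a9 stretch is chr2:178490623-178490872, the Lcn2 stretch chr3:36081781-36082030 and the Ptprc stretch chr13:52259747-52259996.
S100a9: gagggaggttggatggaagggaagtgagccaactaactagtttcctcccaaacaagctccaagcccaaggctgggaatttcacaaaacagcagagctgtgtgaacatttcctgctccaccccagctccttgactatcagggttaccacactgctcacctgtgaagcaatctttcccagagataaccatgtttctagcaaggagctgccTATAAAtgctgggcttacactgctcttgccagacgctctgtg
Lcn2: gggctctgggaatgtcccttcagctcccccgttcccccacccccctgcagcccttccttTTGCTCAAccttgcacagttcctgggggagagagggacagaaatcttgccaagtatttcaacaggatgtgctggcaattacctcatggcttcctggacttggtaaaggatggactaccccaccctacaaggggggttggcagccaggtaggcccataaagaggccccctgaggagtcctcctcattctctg
Ptprc: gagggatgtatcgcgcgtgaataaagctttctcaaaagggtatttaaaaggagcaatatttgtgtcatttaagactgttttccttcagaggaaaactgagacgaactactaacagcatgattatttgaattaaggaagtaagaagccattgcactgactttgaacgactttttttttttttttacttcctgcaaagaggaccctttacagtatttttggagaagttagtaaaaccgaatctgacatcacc

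The S100a9 stretch held 1 TATA match, from 42 to 37 bases before the start, a motif found in 12.9% of the 33469 stretches of this length in the table. The Lcn2 stretch held 1 C/EBP match, from 191 to 184 bases before the start, a motif found in 9.22% of them. The Ptprc stretch held no match to any of the 6 motifs, which says only that these letters are not in this window. The 3 stretches thus shared none of the motifs searched. Stretches were matched for 7 of the 9 genes, and those of S100a8 and Aif1 were not matched. PU.1 matches occurred in 1 of the 7, Cd14, where there were 2 that did not overlap each other, against 10.2% of all stretches. CCAAT matches occurred in 3 of the 7 (Cd68, Cd14 and Cd74), against 34.0% of all stretches. Cd68 held 2 AP-1 matches (6.34% of all stretches hold 1 or more), Cd74 held 1 NF-kB match (1.30%) and Spp1 held 1 TATA match. The matches are descriptions of sequence and not of binding.

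Among the macrophage genes, Spp1 (ENSRNOG00000043451) had the greatest difference, with a wide spread in both groups. It measured 104, 82.5 and 283 FPKM after MCA, against 6.77, 38.9 and 84.5 FPKM after suture. Suture replicate 3 fell just above MCA replicate 2, and suture replicate 1 lay far below all other libraries. Means came to 156 ± 110.1 FPKM (SD, n = 3) for MCA and 43.4 ± 39.1 FPKM (SD, n = 3) for suture, and the ratio of means was 3.61. The log2 difference was 2.18 (standard error 0.899) with a 95% interval of 0.06 to 4.31 (limma, unadjusted p = 0.0457, adjusted p = 0.994). It was 2.53 without MCA replicate 2 (limma, unadjusted p = 0.0332, adjusted p = 0.619). It was 1.21 without suture replicate 1 and 1.65 without MCA replicate 3, and the unadjusted limma values were then 0.104 and 0.136. They were 0.0656 without MCA replicate 1 and 0.0674 without suture replicate 2, also above 0.05. With all 6 libraries kept, the unadjusted p was 0.0590 in limma-voom. In limma it was 0.0575 with no filter and 0.0699 with array quality weights.

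Cd68 (ENSRNOG00000037563) measured 23.6, 28.3 and 41.7 FPKM after MCA, against 8.08, 12.7 and 29.8 FPKM after suture. Suture replicate 3 reached the MCA range and the other 2 suture libraries lay below it. Means came to 31.2 ± 9.39 FPKM (SD, n = 3) for MCA and 16.9 ± 11.5 FPKM (SD, n = 3) for suture, and the ratio of means was 1.85. The log2 difference of 1.00 had a 95% interval of -0.11 to 2.11, which did not exclude 0 (limma, unadjusted p = 0.0702, adjusted p = 1.00). It was 1.05 without MCA replicate 2, 0.61 without suture replicate 1 and 1.49 without suture replicate 3. Cd68 and Spp1 placed the libraries in similar order: over the 6 libraries Pearson's r of log2(FPKM + 1) was 0.952 (exact permutation p = 0.00694) and Spearman's rho was 0.829 (exact permutation p = 0.0583). This pair is one of 36 among the 9 genes, and the Benjamini-Hochberg adjusted p of r over the pairs was 0.0625. With the 2 libraries farthest from the median of Cd68 left out, r was 0.823. The permutations ignored the groups, and both genes had a higher mean with MCA. Both r and rho therefore include the group difference, and neither was computed within the groups.

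Aif1 (ENSRNOG00000000853) measured 9.57, 17.2 and 14.4 FPKM after MCA, against 11.0, 8.61 and 11.1 FPKM after suture. MCA replicates 2 and 3 lay above the suture libraries and MCA replicate 1 lay among them. Means came to 13.8 ± 3.88 FPKM (SD, n = 3) for MCA and 10.2 ± 1.42 FPKM (SD, n = 3) for suture. The log2 difference of 0.36 had a 95% interval of -0.26 to 0.99 (limma, unadjusted p = 0.212), and was 0.19 without MCA replicate 2.

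Cd14 (ENSRNOG00000017819), the receptor gene shared by monocytes and macrophages, was the only one of the 9 with a lower mean of log2(FPKM + 1) in the MCA group. It measured 123, 22.7 and 99.8 FPKM after MCA, against 134, 50.2 and 85.5 FPKM after suture. Replicate 2 of each group was low, and MCA replicates 1 and 3 lay within the suture range. Means came to 81.8 ± 52.6 FPKM (SD, n = 3) for MCA and 89.8 ± 42.0 FPKM (SD, n = 3) for suture. The log2 difference of -0.34 had a wide 95% interval of -1.95 to 1.27 (limma, unadjusted p = 0.635). Its sign rested on MCA replicate 2, without which it was 0.41, and it was 0.00 without suture replicate 1. In MCA replicate 2 the values of S100a8, S100a9, Lcn2 and Ptprc were the highest of all libraries while that of Cd14 was the lowest.

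Cd74 (ENSRNOG00000018735), the antigen presentation gene, was among the most abundant of the 9 genes with both ways of joining. It measured 287, 526 and 395 FPKM after MCA, against 377, 287 and 476 FPKM after suture. The groups covered nearly the same range, with means of 403 ± 119.6 FPKM (SD, n = 3) and 380.1 ± 94.6 FPKM (SD, n = 3). The log2 difference was 0.07 with a 95% interval of -0.79 to 0.93 (limma, unadjusted p = 0.852). It was -0.14 without MCA replicate 2. Cd74 and Aif1 had a Pearson's r of 0.816 over the 6 libraries (exact permutation p = 0.0458, adjusted p over the 36 pairs 0.183) and a Spearman's rho of 0.943 (exact permutation p = 0.0167). Without the 2 libraries farthest from the median of Aif1, r was 0.876. These permutations also ignored the groups.

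**Figure D2:**
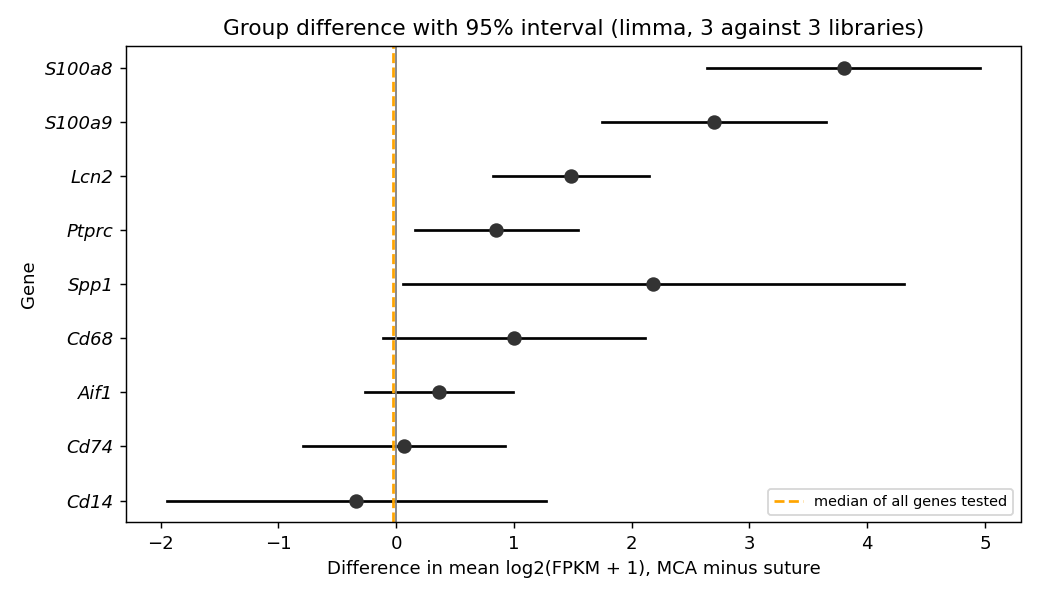
Difference in mean log2(FPKM + 1), MCA minus suture, for each gene (point) with its 95% interval from limma (line), 3 libraries per group, and the median of all genes tested as a dashed line at -0.02. The intervals of S100a8, S100a9, Lcn2, Ptprc and Spp1 lie above 0, and those of Cd68, Aif1, Cd74 and Cd14 include it. The intervals are not adjusted for the number of genes.

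The order of levels was not the same in the 2 groups. By mean FPKM in the MCA group the order was S100a9, Cd74, S100a8, Spp1, Cd14, Cd68, Lcn2, Aif1 and Ptprc. In the suture group it was Cd74, Cd14, S100a9, Spp1, Cd68, S100a8, Aif1, Lcn2 and Ptprc. Most neighbours in these orders overlapped in their libraries. The exceptions were Cd68 above Lcn2 with MCA, and Cd74 above Cd14 and Aif1 above Lcn2 with suture. S100a8 stood in place 3 with MCA and in place 6 with suture.

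The spread between libraries of a group differed by gene. The SD of log2(FPKM + 1) within the MCA group was highest for Cd14, at 1.30, and lowest for Lcn2, at 0.26, against a median of 0.36 over all genes tested. Within the suture group it was highest for Spp1, at 1.77, and lowest for Ptprc, at 0.18, against a median of 0.33. Of the 9 genes, 6 had their highest value in MCA replicate 2 (Ptprc, Aif1, Cd74, S100a8, S100a9 and Lcn2), where 18.3% of all genes tested had theirs. The lowest value of 5 of the 9 (Aif1, Cd74, S100a8, S100a9 and Lcn2) was in suture replicate 2, where 12.8% of all genes had theirs.

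Each gene was also set against Ptprc in the same library, as a level relative to the pan-leukocyte gene. The S100a8 to Ptprc ratio of FPKM was 19.8, 26.7 and 17.6 after MCA, against 4.40, 1.54 and 3.09 after suture. The S100a9 to Ptprc ratio was 69.5, 61.9 and 63.3 with MCA and 25.4, 12.2 and 24.4 with suture, in the same order. Both ratios were higher in every MCA library, which held for 0.684% of the 13590 other genes tested. Means were 21.3 ± 4.76 and 3.01 ± 1.43 (SD, n = 3) for S100a8, a ratio of 7.08, and 64.9 ± 4.06 and 20.7 ± 7.36 (SD, n = 3) for S100a9, a ratio of 3.14. The S100a9 to Ptprc ratio was nearly the same in all 3 MCA libraries, including MCA replicate 2.

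The remaining genes differed less, or in the other direction, when set against Ptprc. The Lcn2 to Ptprc ratio was 2.59, 1.75 and 2.45 after MCA, against 1.77, 0.941 and 1.74 after suture, so the groups touched at MCA replicate 2. The Cd68 to Ptprc ratio averaged 3.80 ± 1.53 (SD, n = 3) after MCA and 3.75 ± 2.13 (SD, n = 3) after suture, and its groups overlapped. Spp1 and Cd14 also overlapped, but their means differed. The Spp1 to Ptprc ratio averaged 19.8 ± 14.7 (SD, n = 3) after MCA and 9.34 ± 7.84 (SD, n = 3) after suture. For Cd14 the means were 11.6 ± 9.42 (SD, n = 3) and 22.0 ± 13.5 (SD, n = 3). The Cd74 to Ptprc ratio was 47.9, 40.9 and 49.7 with MCA and 105, 63.6 and 98.6 with suture, and every MCA value was lower. The Aif1 to Ptprc ratio was 1.60, 1.34 and 1.82 with MCA and 3.06, 1.91 and 2.30 with suture, again lower in every MCA library. A ratio to Ptprc that was lower in every MCA library was found for 41.8% of the other genes tested, since Ptprc itself was higher with MCA, so this direction does not set Cd74 and Aif1 apart. These ratios were chosen after the levels had been seen and were not tested.

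**Figure D3:**
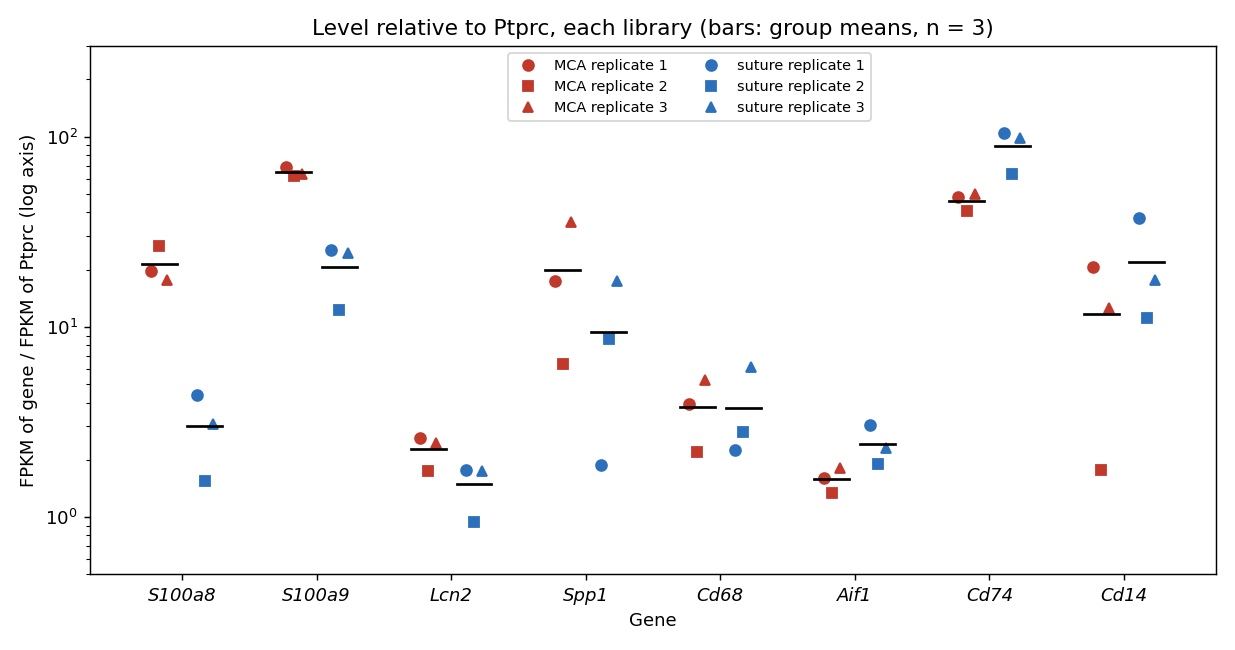
FPKM of each gene divided by FPKM of Ptprc in the same library, on a log axis, with MCA in red, suture in blue, marker shape for the replicate number and black bars for group means (n = 3). The red points lie above the blue for S100a8 and S100a9 and below them for Aif1 and Cd74, and the colours overlap for Lcn2, Spp1, Cd68 and Cd14.

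Leaving out each library in turn showed which differences depended on a single library. The log2 difference ran from 3.33 to 4.09 for S100a8, from 2.39 to 2.94 for S100a9 and from 1.26 to 1.68 for Lcn2. These 3 genes kept an unadjusted limma p under 0.05 in each of these fits and passed the adjusted threshold in none of them. The range was 0.58 to 1.08 for Ptprc, 1.21 to 2.94 for Spp1, 0.61 to 1.49 for Cd68 and 0.19 to 0.59 for Aif1. For Cd74 it was -0.14 to 0.29 and for Cd14 -0.79 to 0.41, so neither gene had a stable direction.

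**Figure D4:**
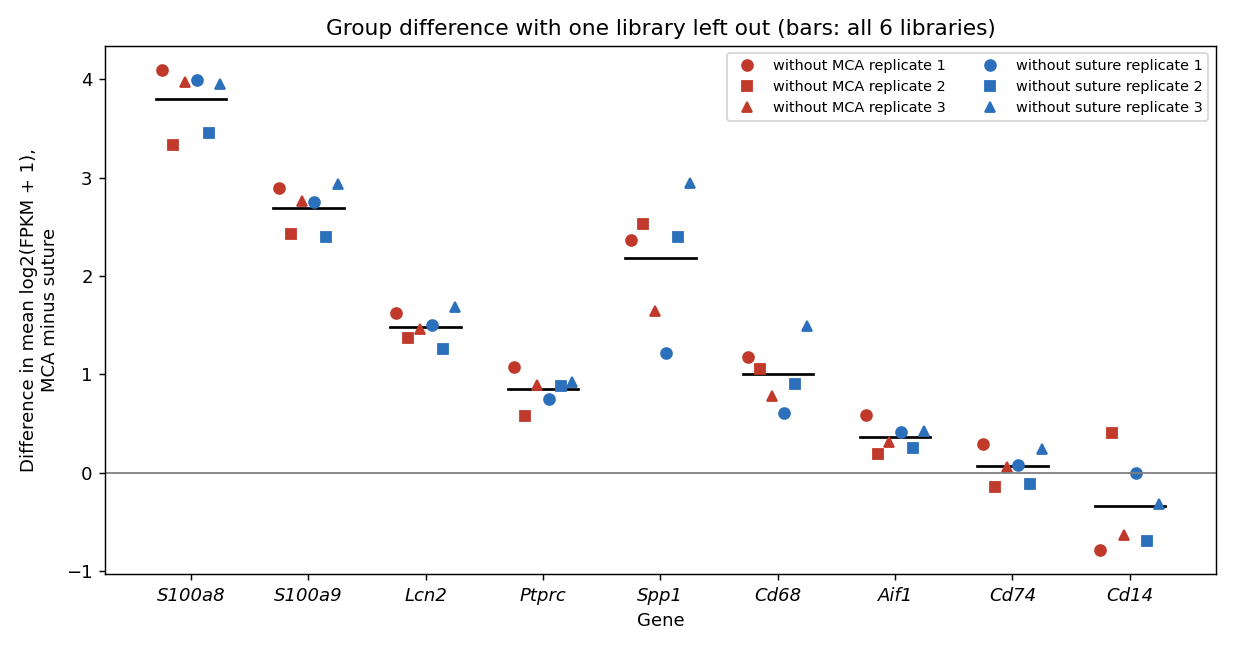
Difference in mean log2(FPKM + 1), MCA minus suture, for each gene with all 6 libraries (black bar) and with each library left out (red for an MCA library left out, blue for a suture library, marker shape for its replicate number). The points of S100a8, S100a9 and Lcn2 all lie above 1, those of Spp1 spread from 1.21 to 2.94, and those of Cd74 and Cd14 fall on both sides of 0.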

How the data were processed

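Expression was measured by RNA-seq in 6 libraries, 3 per group. TRIzol RNA went into NEBNext Ultra libraries sequenced on a DNBSEQ-T7, and the authors deposited normalized FPKM, per the labels' protocols. The submitters' processing notes name limma without its role. No source used here gives the aligner, counter, build, annotation or strandedness, and reads of overlapping genes were not reassigned. The deposited table pairs no identifier with a symbol. The 9 symbols came with the list of identifiers, and these members, like the lists and tests, were chosen with earlier results of these data known.

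A mean of 1 FPKM or more over the libraries was required, which kept 13591 genes, all 9 members among them, and removed 7826. Groups were compared on log2(FPKM + 1) with limma 3.58.1 in R 4.3.3 (two-sided, no covariates, variance trend in the empirical Bayes step, Benjamini-Hochberg over the genes kept, threshold 0.05), after the procedure had been tested on simulated data. The pseudocount understates differences of low genes. Library totals, gene lengths and whole fragments were recovered from the full-precision values (100% of 21417 genes). No pair of libraries was a copy: the lowest chi-square per gene was 44.3. The S100a8 to S100a9 ratio and the correlations among the 9 genes used exact permutation tests, and the other ratios were not tested. All 9 members are described. Alternatives covered pseudocounts (0.1, 0.5), filters (none, 5 FPKM), scalings, array weights, limma-voom, no trend, a replicate block and leaving out each library. RefSeq sequences (GRCr8) were matched by symbol. Python 3.11.15, scipy 1.17.1 and matplotlib 3.10.9 were used.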

Additional observations from a re-analysis of the deposited data

How the results depend on the processing

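In the suture group S100a8 rested on as few as 41 fragments and Lcn2 on 59, and the effect of this depth on their tests was not measured. S100a8, S100a9, Lcn2, Ptprc, Spp1, Cd68 and Aif1 had a higher mean with MCA in all 17 alternative settings. With array quality weights, which gave MCA replicate 1 a weight of 4.31 and MCA replicate 2 one of 0.290, S100a8 (log2 difference 3.27, limma adjusted p = 0.0190, range over settings 0.0190 to 0.415) and S100a9 (2.26, adjusted p = 0.0484, range 0.0484 to 0.491) passed the adjusted threshold. Under these weights Cd14 turned to 0.41 and Cd74 to -0.35, 35 genes of all those tested passed the adjusted threshold and 1360 had an unadjusted p under 0.05, and 3 of the 9 genes did. Cd14 also turned without MCA replicate 2 (0.41) and without suture replicate 1 (0.0022), and Cd74 without MCA replicate 2 (-0.14) or suture replicate 2 (-0.12). With 1 library left out, Cd14 ran from -0.79 to 0.41 and Cd74 from -0.14 to 0.29. The count of all genes at an unadjusted p under 0.05, 667 as reported, was 334 of 9229 when a mean of 5 FPKM was required, and 511 to 1065 with 1 library left out. The count among the 9 genes, 5 as reported, was 3 to 6 with 1 library left out, with the 3 reached without suture replicate 1. That count was 4 with limma-voom and 4 with no filter. The cause of these shifts was not tested. With the replicate number as a block, 1141 genes and 6 of the 9 had an unadjusted p under 0.05, Cd68 being the one added, and 0 genes passed the adjusted threshold. The labels do not say that the numbers pair animals. Deviations of same-numbered libraries of the 2 groups correlated at 0.42, 0.53 and -0.0016, and those of differently numbered libraries at -0.47 to 0.28. The cause of these correlations was not tested. The higher S100a8 to S100a9 ratio with MCA kept its direction as a ratio of FPKM + 1 and with each library left out.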
